A study of Mus musculus with 12 samples.

Results

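Interferon γ (IFNγ), the cytokine that activated T cells and natural killer cells release, was added at a low dose to the DNA-crosslinking platinum drug oxaliplatin (Oxali). The cells were Myc-CaP, a cultured line from a prostate tumour of mice that carry a Myc transgene in the prostate epithelium. Gene expression was measured by RNA-seq, and the comparison was between the groups Combo200 and Oxali, chosen by sample title. These were 4 of the 12 libraries of the series, 2 per group: Oxali replicates 1 and 2, and Combo200 replicates 2 and 3. Both groups had received 2 μM Oxali and were taken after 48 h. The Combo200 cells had also received 200 pg of IFNγ, a dose whose label gives no volume. The study states the IFNγ doses of its RNA-seq in these cells per mL. Set beside them were untreated cells (Ctrl), cells given 200 pg of IFNγ alone (IFN200) and cells given Oxali with 2000 pg of IFNγ (Combo2000), 2 libraries each. All came from 1 line, and no label says whether the libraries of a group were separate cultures, so p-values measure only the spread between these libraries.

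A second label, the agent, disagreed with the titles of the single treatments. The libraries titled Oxali carried the agent IFNγ 2000 pg, and those titled IFN200 carried the agent Oxali, whereas the labels of Ctrl and of the combinations did not conflict. If the agent labels were right, Combo200 would stand here against IFNγ 2000 pg alone. The titles were checked with 18 target genes of p53, the transcription factor that DNA damage activates. Relative to Ctrl, these targets averaged 0.40 and 0.37 on the log2 scale in Oxali and 0.39 and 0.37 in Combo200, against -0.01 and 0.02 in IFN200. Cdkn1a, the p53 target that arrests the cell cycle, stood at 51.0 and 48.1 CPM (a count in millionths of the scaled library total) in Oxali, 50.4 and 50.5 in Combo200, 24 and 24.8 in Ctrl and 26.9 and 25.6 in IFN200. Titles are used throughout.

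Library totals were 20827727 and 19899789 counts in Oxali and 21982445 and 24971915 in Combo200. A count of 0 therefore allows at most 3 counts, or 0.116 to 0.143 CPM in these libraries, counting error only. Partner libraries differed by more than sampling noise, with a chi-square over its degrees of freedom of 1.71 in Combo200 and 9.15 in Oxali. Oxali replicate 1 stood apart in ribosomal RNA: CT010467.1, a ribosomal RNA gene, took 0.357% of its counts and 0.0287% of those of replicate 2. The 2 Oxali libraries also differed along GC content. Over 13043 genes of each library, GC content had a Spearman correlation with the log2 ratio to the Oxali mean of 0.22 and -0.22 in the Oxali libraries. These 2 values mirror each other by construction, since that mean is of the same 2 libraries. The Combo200 libraries, set against the mean of another group, had 0.10 and 0.07, which is not a like measure. These are correlations across genes, which are not independent replicates. Of the epithelial and prostate luminal markers, Krt8 and Hoxb13 were expressed, while Epcam had no count in the 4 libraries. Markers of T cells, B cells and endothelium summed to 0.191 CPM or less per list in every one of the 4 libraries. Other lists were not near 0. Fibroblast markers summed to 24.97 and 25.62 CPM in Oxali and 22.77 and 24.54 in Combo200, mainly Pdgfra. Heart muscle markers summed to 5.942 and 4.39 CPM in Oxali and 4.449 and 3.71 in Combo200, mainly Tnnt2. Macrophage markers summed to 15.3 and 16.1 CPM in Oxali and 17.8 and 16.7 in Combo200, mainly Cd14. Adgre1 and Itgam, which define that cell type, had no count. In such bulk samples, fewer cells of a kind and less RNA per cell cannot be told apart.

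IFNγ binds the receptor chains Ifngr1 and Ifngr2, and the kinases Jak1 and Jak2 then phosphorylate transcription factors whose dimers bind the γ-activated sequence (GAS) and switch on a first wave of genes, among them Irf1. The factor Irf1, together with a complex that holds Stat2 and Irf9, binds interferon-stimulated response elements at a second set of genes. The response is known in most nucleated cells for raising class I antigen presentation, the immunoproteasome that cuts peptides for it, and the guanylate binding proteins and immunity related GTPases that attack vacuoles of intracellular pathogens.

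The promoters of 6 genes with large rises are shown because they hold the letters of one or both of these elements, and they were picked with the matches known. Sequences are from RefSeq on GRCm38.p6 and run over the 120 bases before the annotated start, on the strand of the gene. Capitals mark matches to the GAS letters TTCNNNGAA or, on either strand, to the core of the interferon-stimulated response element GAAANNGAAA. Irf1 lies at chr11:53769894-53770013 (+), Igtp at chr11:58199436-58199555 (+), Irgm2 at chr11:58214857-58214976 (+), Tgtp1 at chr11:48992247-48992366 (-), Gbp3 at chr3:142559924-142560043 (+) and Gbp7 at chr3:142530216-142530335 (+).
Irf1: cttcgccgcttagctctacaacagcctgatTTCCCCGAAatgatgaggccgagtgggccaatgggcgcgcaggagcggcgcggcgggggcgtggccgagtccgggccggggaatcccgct
Igtp: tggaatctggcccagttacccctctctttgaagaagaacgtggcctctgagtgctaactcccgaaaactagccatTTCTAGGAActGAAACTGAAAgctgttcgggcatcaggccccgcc
Irgm2: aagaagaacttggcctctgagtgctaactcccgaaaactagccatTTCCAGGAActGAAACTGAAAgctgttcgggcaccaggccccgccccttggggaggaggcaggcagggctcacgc
Tgtp1: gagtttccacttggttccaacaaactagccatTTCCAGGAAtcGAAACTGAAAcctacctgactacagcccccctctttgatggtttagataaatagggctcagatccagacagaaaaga
Gbp3: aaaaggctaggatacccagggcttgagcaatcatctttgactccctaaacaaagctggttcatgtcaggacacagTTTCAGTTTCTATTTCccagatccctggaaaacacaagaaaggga
Gbp7: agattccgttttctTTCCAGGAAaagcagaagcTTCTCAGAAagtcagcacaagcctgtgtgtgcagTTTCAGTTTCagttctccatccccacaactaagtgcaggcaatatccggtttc
In Igtp, Irgm2 and Tgtp1, all immunity related GTPases, a GAS match was followed, 11 bases closer to the start, by a response element match. Igtp and Irgm2 shared a run of 38 identical bases, which lay before this pair and ended on the letters TTC of the GAS match. Their GAS matches differed, TTCTAGGAA in Igtp and TTCCAGGAA in Irgm2. Irf1 held a GAS match only, 90 bases before its start, and Gbp3 held only the response element, in overlapping copies 6 bases apart. RefSeq gives Irf1 and Gbp3 another start each, not printed. Those promoters, from 250 bases before to 50 after the start, held no match. A match is a description of letters and does not show binding.

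Adding 200 pg of IFNγ to Oxali raised guanylate binding proteins and immunity related GTPases, the lists with the highest medians, by large factors, and 132 of the 208 genes called higher by less than 2-fold. Of 13177 genes tested, 241 (1.83%) were called at an adjusted p under 0.05, 208 higher (1.58%) and 33 lower (0.25%). Among the rises, 76 were at least 2-fold, 46 at least 4-fold and 30 at least 8-fold. The median log2 fold change was 0.61 among the rises and -0.29 among the falls, against 0.01 over all genes. Without adjustment, p was under 0.05 for 946 genes with higher and 501 with lower values. All 208 genes called higher had both Combo200 libraries above both Oxali libraries, which 23.9% of all genes tested had. Single libraries mattered for the number of calls, which was 147 without Oxali replicate 2, 128 without Combo200 replicate 3 and at least 182 without either of the other 2. The larger rises depended on them less: 62 of the 76 rises of at least 2-fold, 53 of the 132 smaller rises and 1 of the 33 falls were called in each of the 4 fits that left out 1 library.

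**Figure D1:**
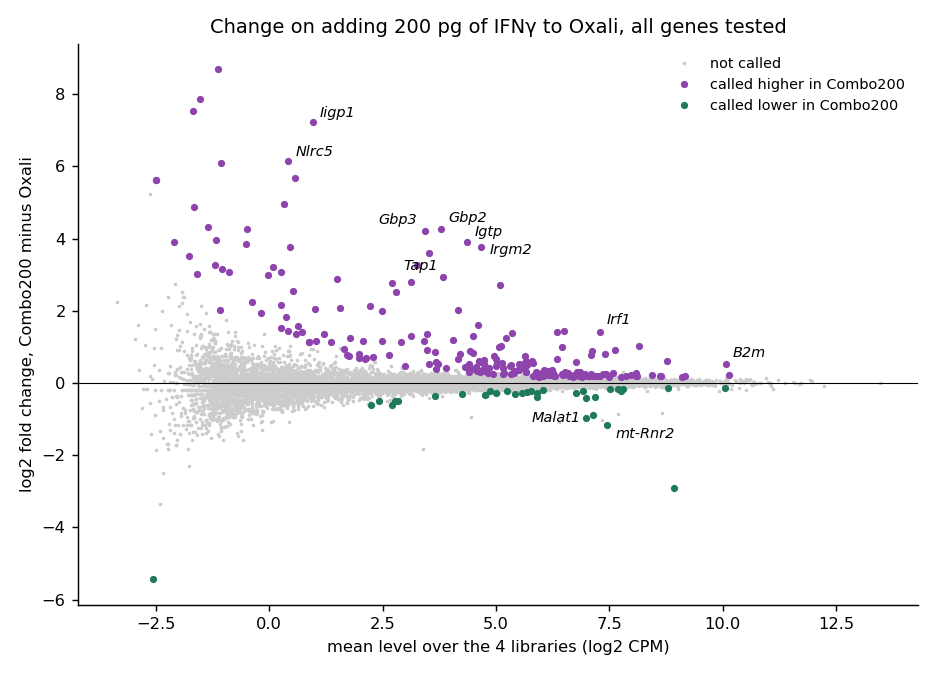
Log2 fold change of each gene tested in Combo200 minus Oxali (vertical axis) against its mean level over the 4 libraries in log2 CPM (horizontal axis); purple points are the 208 genes called higher, green points the 33 called lower and grey points the genes not called. Rises are seen at low and high levels, but that of the highly expressed B2m is only 0.53. Falls are few and mostly small.

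Promoters were found in RefSeq for 160 of the 208 genes called higher and for 9596 of the genes tested. The GAS letters, searched from 250 bases before to 50 after the start, were in 16.2% of the promoters of genes called higher and in 8.46% of those of all genes tested. The response element letters were in 30.6% and 3.63%. Among rises of at least 2-fold, 51.9% of 52 promoters held one or the other, against 30.6% of 108 for smaller rises and 8.7% of 23 for genes called lower. Over all 27025 genes with a promoter the share was 12.9%. The motifs overlapped each other in 1.88% of the promoters of genes called higher. Of the 20 largest rises 18 had a promoter in RefSeq and 10 of these held a match. The promoters of Tap1, Psmb9, Mpeg1, Ifi47, Xaf1, Il18bp, Oasl2 and Irf9 held none, which says only that these letters were not in this window.

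The marker genes of the response were far apart between the groups. Tap1, which carries peptides into the endoplasmic reticulum, stood at 4.42 and 5.87 CPM in Oxali and at 39.7 and 38.5 in Combo200 (log2 fold change 2.93, SE 0.09, edgeR adjusted p 7.61e-15). Irf1 stood at 96.3 and 94.1 CPM in Oxali and at 258 and 254 in Combo200 (log2 fold change 1.43, SE 0.04, adjusted p 5.29e-15). For both genes the libraries of a group lay close together and the groups did not overlap. Tap1 spans chromosome 17, 34187553 to 34197225, and shares 212 bases with Psmb9 on the other strand. Irf1 spans chromosome 11, 53770014 to 53778374.

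Among 13 genes of the IFNγ receptor and JAK-STAT pathway, 3 rose, none fell and the median log2 fold change was 0.02. Stat2 rose by 0.44 (SE 0.06) and Stat3 by 0.37 (SE 0.04) on the log2 scale. The receptor chains did not pass the test: Ifngr1 was at 59.6 and 61.3 CPM in Oxali and 62.6 and 62.2 in Combo200, and Ifngr2 at 4.88 and 4.44 in Oxali and 5.28 and 4.45 in Combo200. The log2 fold changes of Jak1 and Jak2 were 0.01 and -0.03, with an SE of 0.04 for both.

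Of 8 interferon regulatory factors tested, 5 rose and none fell, with a median log2 fold change of 0.44. Irf9, the DNA-binding partner of Stat2, stood at 13.6 and 14.4 CPM in Oxali and at 40.6 and 44.1 in Combo200 (log2 fold change 1.60, SE 0.07, adjusted p 2.50e-12). Irf1 and Irf9 were called in every fit that left out 1 library, and without Oxali replicate 2 or Combo200 replicate 3 they were the only 2 called. Irf7, Irf8 and Irf2 were called with log2 fold changes of 0.71, 1.53 and 0.17, but each lost its call without Combo200 replicate 3 (adjusted p 0.118, 0.0556 and 0.404) and in at least 2 of the 3 other such fits. Irf3 and Irf4 had log2 fold changes of -0.04 and 0.12. Irf5 had 3 counts or fewer in each of the 4 compared libraries and was not tested.

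Of 14 negative regulators of the pathway, 5 rose and none fell. Ifi35 rose by 0.48 (SE 0.06) and Adar, which edits double-stranded RNA, by 0.29 (SE 0.05) on the log2 scale. Socs1, which inhibits the JAK kinases and is itself a target of the pathway, stood at 2.35 and 2.48 CPM in Oxali and at 4.45 and 3.90 in Combo200 (log2 fold change 0.79, SE 0.18, adjusted p 0.0183). The groups did not overlap, yet the call for Socs1 was lost in each of the 4 fits without 1 library (adjusted p 0.0556 to 0.186). Usp18, which blocks type I interferon signalling, had a log2 fold change of 0.80 and lost its call in 3 of those fits. The phosphatases Ptpn1, Ptpn2 and Ptpn11 had log2 fold changes of 0.04, 0.06 and 0.10 and did not pass the test.

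**Figure D2:**
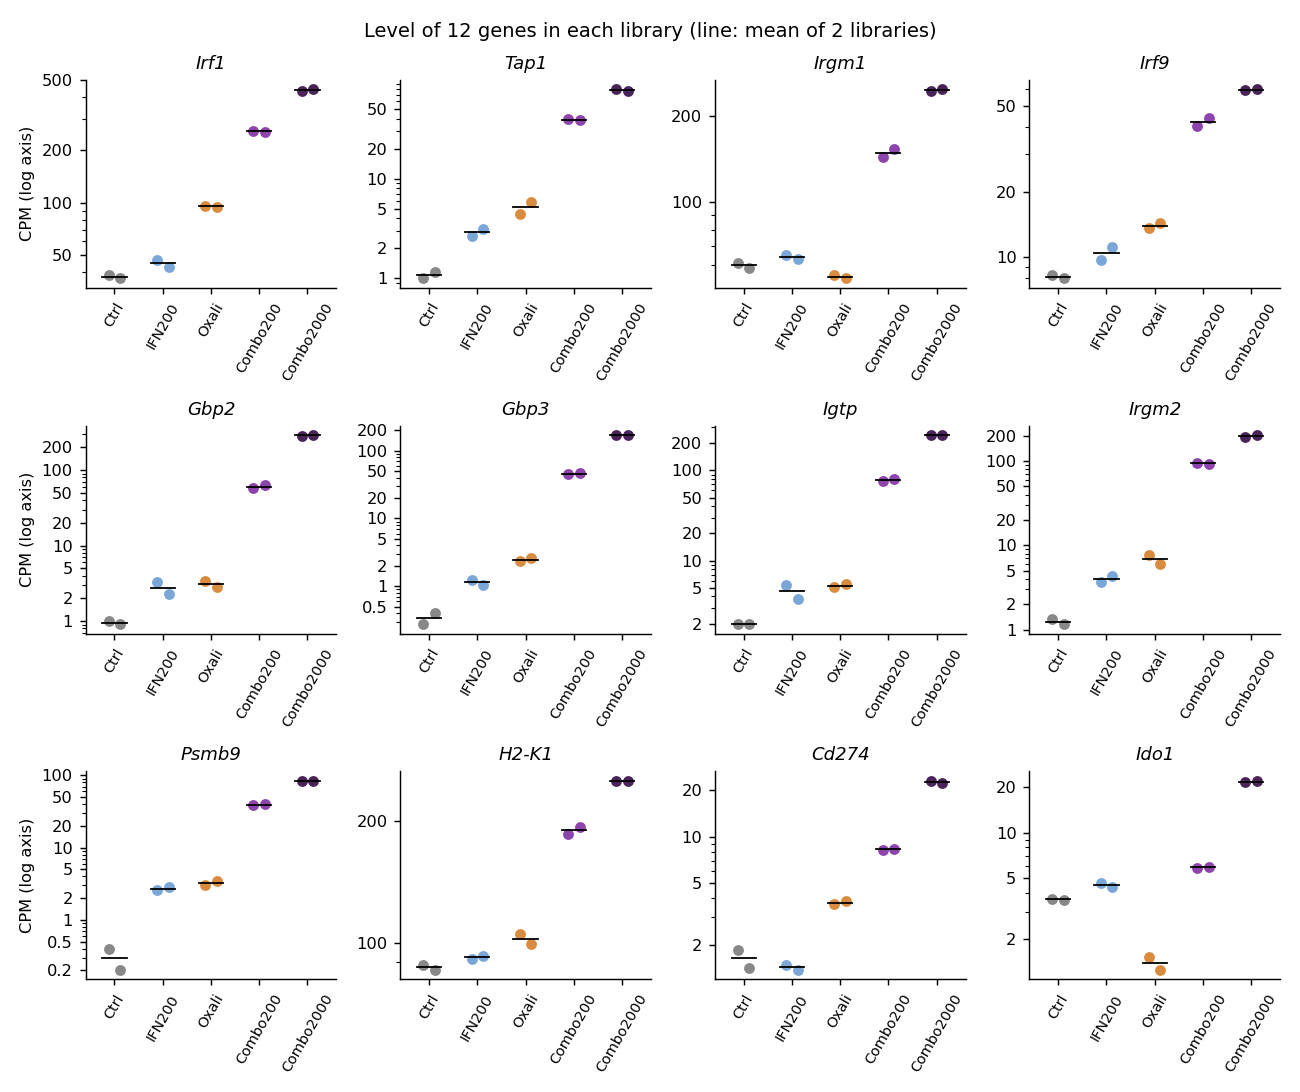
Level of 12 interferon response genes in CPM on a log axis in each library of Ctrl, IFN200, Oxali, Combo200 and Combo2000; points are libraries and lines are means of 2. In all 12 panels the Combo200 libraries lie above the Oxali libraries and below the Combo2000 libraries.

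The machinery that supplies peptides to class I molecules rose nearly as a block. Of 15 genes listed, 11 rose and none fell, with a median log2 fold change of 1.00, and the same number was called in each of the 4 fits without 1 library. Psmb9, a catalytic subunit of the immunoproteasome, stood at 3.04 and 3.44 CPM in Oxali and at 39.2 and 39.7 in Combo200 (log2 fold change 3.61, SE 0.09, adjusted p 2.89e-16). Psmb8 rose by 2.80 and Psmb10 by 1.42 on the log2 scale. The proteasome activators Psme1 and Psme2 rose by 0.76 and 0.91. Tap2, the partner of Tap1, rose by 1.39, the peptide editors Tapbp and Tapbpl by 1.03 and 1.00, and the trimming peptidase Erap1 by 0.81.

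The 4 members that did not pass the test were the chaperones Calr, Canx and Pdia3, which fold many glycoproteins besides class I, and the trafficking factor Sec22b. Their log2 fold changes lay between -0.02 and 0.03. Calr, for example, stood at 1364 and 1294 CPM in Oxali and at 1334 and 1377 in Combo200, so its groups overlapped. In the constitutive proteasome core, 3 of 14 genes were called higher, Psma2, Psma5 and Psmb4, each by 0.27 or less on the log2 scale, with a list median of 0.11. None of the 3 was called without Oxali replicate 2 or without Combo200 replicate 3.

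Nlrc5, the activator of class I promoters, was close to absent in Oxali, with 3 and 2 counts, and had 223 and 201 counts in Combo200. The ratio of the scaled counts was 74.1 (95% exact interval 31.5 to 230, counting error only, adjusted p 4.88e-11). Nlrc5 passed the filter on low counts through libraries given IFNγ. Ciita, the related activator of class II genes, had 0 and 2 counts in Oxali and 6 and 7 in Combo200 and did not pass the test.

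Among the class I molecules themselves, 9 of 12 tested genes rose and none fell, with a median log2 fold change of 0.80. B2m, the invariant light chain, stood at 892 and 897 CPM in Oxali and at 1274 and 1311 in Combo200 (log2 fold change 0.53, SE 0.04, adjusted p 3.86e-09). The classical heavy chain H2-K1 stood at 105 and 99.3 CPM in Oxali and at 186 and 193 in Combo200 (log2 fold change 0.89, SE 0.05, adjusted p 3.00e-11), and H2-D1 rose by 0.62 (SE 0.04). These 3 genes were called in all fits without 1 library, while the number called in the list was 5 without Combo200 replicate 3 and 6 without Oxali replicate 2. Genes of the H2 family resemble each other and could share or lose reads, so single values of H2-Q and H2-T genes are uncertain. Mr1, which presents vitamin metabolites, had a log2 fold change of 0.08.

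The guanylate binding proteins had the highest list median, a log2 fold change of 4.21 over 11 genes tested, of which 8 rose and none fell. Gbp2 stood at 3.36 and 2.86 CPM in Oxali and at 57.4 and 63.2 in Combo200 (log2 fold change 4.27, SE 0.10, adjusted p 3.49e-17). Gbp3 stood at 2.40 and 2.58 CPM in Oxali and at 45.7 and 46.2 in Combo200, and Gbp7 at 3.27 and 2.82 in Oxali and 30.1 and 28.7 in Combo200. Some members were almost silent without IFNγ. Gbp10 had 0 and 1 counts in Oxali and 43 and 54 in Combo200, and Gbp2b 1 and 1 counts in Oxali and 23 and 28 in Combo200. Both passed the filter on low counts through libraries given IFNγ. Gbp6, Gbp8 and Gbp11 had at most 9 counts in any of the 4 libraries and did not pass the test. The fitted changes of such genes depend on a prior count, and reads could be split between these near-identical copies.

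All 9 immunity related GTPases tested rose, with a median log2 fold change of 3.91, and all 9 were called in each fit without 1 library. One of them, Gm4951, had 1 and 0 counts in Oxali and passed the filter on low counts only through the combinations. Of the 12 genes listed, Gm5431, Gvin1 and Gm4070 had at most 6 counts in any of the 4 libraries and were not tested. Irgm2 stood at 7.74 and 6.01 CPM in Oxali and at 95.8 and 91.5 in Combo200 (log2 fold change 3.76, SE 0.07, adjusted p 7.69e-18). Igtp stood at 5.07 and 5.44 CPM in Oxali and at 76.8 and 81.1 in Combo200 (log2 fold change 3.91, SE 0.08). In the annotation the bodies of Igtp and Irgm2 overlap by 7974 bases on the same strand, so reads there could be counted for neither or for both. Irgm1, a regulatory member of the family, started from a higher level and rose less, from 55.4 and 54.1 CPM to 143 and 154 (log2 fold change 1.44, SE 0.04). Iigp1 had 2 and 3 counts in Oxali and 416 and 480 in Combo200, a ratio of 157 (95% exact interval 66.9 to 484). Iigp1 and Tgtp2 passed the filter on low counts through libraries given IFNγ. Tgtp1 and Tgtp2, a pair of near-identical genes, had fitted log2 fold changes of 2.02 and 5.67, and Ifi47 rose by 2.52. Of this family, Igtp, Irgm2 and Tgtp1 are those whose printed promoters held both motifs. The promoters of Tgtp2 and Gm12250, not printed, also held both.

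Antiviral effectors of the interferon response rose in part. Of 20 tested, 10 were called higher and none lower, with a median log2 fold change of 0.99. That median is partly set by the filter on low counts. Rsad2, Oas1a and Oas2, not called, had at most 5 counts in each Oxali library and passed it only with Combo2000. Rtp4 and Oas3, both called, passed it through libraries given IFNγ. Bst2, which tethers budding virus to the membrane, stood at 63.5 and 62.1 CPM in Oxali and at 120 and 129 in Combo200 (log2 fold change 0.99, SE 0.05, adjusted p 1.11e-11). Ifitm3 rose by 1.31 (SE 0.06), Xaf1 by 2.14 (SE 0.15) and Oasl2 by 2.00 (SE 0.15) on the log2 scale. Isg15, a ubiquitin-like protein, had a log2 fold change of 0.53 and lost its call without Combo200 replicate 3 (adjusted p 0.0556), when 6 genes of the list were called. Mx1, Mx2, Ifi44, Ifi44l, Oas1g, Oasl1 and Cmpk2 had at most 12 counts in any of the 4 libraries and were not tested.

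Of 11 nucleic acid sensors, 3 were called higher: Ddx58, the RNA sensor RIG-I, by 0.54 (SE 0.05), the endosomal receptor Tlr3 by 0.37 (SE 0.05), and Ddx60, with a fitted log2 fold change of 3.08 from 0.0921 and 0.191 CPM in Oxali. Ddx60 passed the filter on low counts through the combinations. Cgas, the cytosolic DNA sensor, was at 25.1 and 24.6 CPM in Oxali and 25.3 and 25.7 in Combo200. In ubiquitin-like conjugation and TRIM genes 6 of 9 rose, led by Uba7, the enzyme that activates Isg15, at 6.59 and 7.54 CPM in Oxali and 17.2 and 14.3 in Combo200 (log2 fold change 1.15, SE 0.11). Its partner Ube2l6 rose by 0.74 (SE 0.06). Of 7 PARP and Schlafen genes 4 rose, with Parp14 at 25.3 and 23.1 CPM in Oxali and 57.0 and 58.9 in Combo200 (log2 fold change 1.26, SE 0.06). Parp9 and Dtx3l, which form a complex and overlap by 682 bases on opposite strands, rose by 0.76 and 0.62.

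Signals that tumour cells send to lymphocytes moved unevenly. Cd274, which encodes PD-L1, stood at 3.64 and 3.82 CPM in Oxali and at 8.20 and 8.35 in Combo200 (log2 fold change 1.15, SE 0.15, adjusted p 5.42e-05). Ido1, which degrades tryptophan, stood at 1.52 and 1.24 CPM in Oxali and at 5.85 and 5.95 in Combo200 (log2 fold change 2.09, SE 0.16). Il18bp, a secreted inhibitor of interleukin-18, rose by 2.06 (SE 0.23) and Il15ra, which presents interleukin-15, by 0.91 (SE 0.10). In all, 6 of the 13 checkpoint ligands and costimulators tested rose and none fell, and 4 were called without Oxali replicate 1, Oxali replicate 2 or Combo200 replicate 2. Pvr, Nectin2, Icosl and Cd47 had log2 fold changes between -0.10 and 0.11.

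Chemokines were scarce. Cxcl10, which attracts T cells through Cxcr3, stood at 0.829 and 0.954 CPM in Oxali and at 2.14 and 2.40 in Combo200 (log2 fold change 1.35, SE 0.24, adjusted p 0.00241), and its call was lost without Combo200 replicate 3 (adjusted p 0.0507). Cxcl11 had 1 and 1 counts in Oxali and 8 and 21 in Combo200, and passed the filter on low counts only with Combo2000. Cxcl9, the third ligand of that receptor, had at most 2 counts in any of the 4 libraries. Ccl9, a chemokine for myeloid cells, was called lower, from 50.5 and 53.7 CPM to 43.8 and 42.8 (log2 fold change -0.27, SE 0.06), and it was the one list gene called lower. That call was lost in 3 of the 4 fits without 1 library (adjusted p 0.0899 to 0.256) and kept without Oxali replicate 1.

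In complement, 4 of 7 tested genes were called higher by edgeR and 3 by DESeq2. One of the 4, C1s2, had 1 and 2 counts in Oxali and 15 in each Combo200 library. It passed the filter on low counts through the combinations. C3, the central component, stood at 43.7 and 43.1 CPM in Oxali and at 63.9 and 59.6 in Combo200 (log2 fold change 0.51, SE 0.07), and C1ra rose by 1.24 (SE 0.15). C1s1 rose from 0.415 and 0.191 CPM to 3.32 and 2.51. Among 16 cell death genes 3 rose: Casp12 by 1.36 (SE 0.09), Mlkl, the executor of necroptosis, by 0.49 (SE 0.05), and Tnfsf10, the death ligand TRAIL, by 0.52 (SE 0.07). Casp8, Bax, Bcl2l1 and Mcl1 had log2 fold changes between -0.02 and 0.09. Of the class II list 6 genes of 12 could be tested and Cd74, the invariant chain, was the one called (log2 fold change 1.37, SE 0.23). H2-Aa, H2-Ab1 and H2-Eb1 had no count in the 4 libraries.

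Genes of the DNA damage, growth and luminal programmes did not move detectably when IFNγ was added. Of the 18 p53 targets, 20 MYC targets, 20 proliferation genes, 8 luminal genes and 14 genes of the unfolded protein and stress response tested, edgeR called 0 and DESeq2 called 0. Unadjusted p was under 0.05 for 2 p53 targets, 1 MYC target, 1 proliferation gene, 0 luminal genes and 4 stress genes (Atf3, Trib3, Hmox1 and Gclm, all with higher values). The list medians were -0.02, 0.00, 0.02, -0.03 and 0.01 on the log2 scale. Mdm2, the p53 target that degrades p53, stood at 104 and 107 CPM in Oxali and at 111 and 110 in Combo200 (log2 fold change 0.07, SE 0.04). Mki67, a marker of cycling cells, stood at 495 and 560 CPM in Oxali and at 505 and 504 in Combo200. Among 15 NF-κB targets 2 were called higher, the macrophage growth factor Csf1, by 0.59 (SE 0.04), and Nfkbie, whose call was lost in 3 of the 4 fits without 1 library (adjusted p 0.0757 to 0.146).

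**Figure D3:**
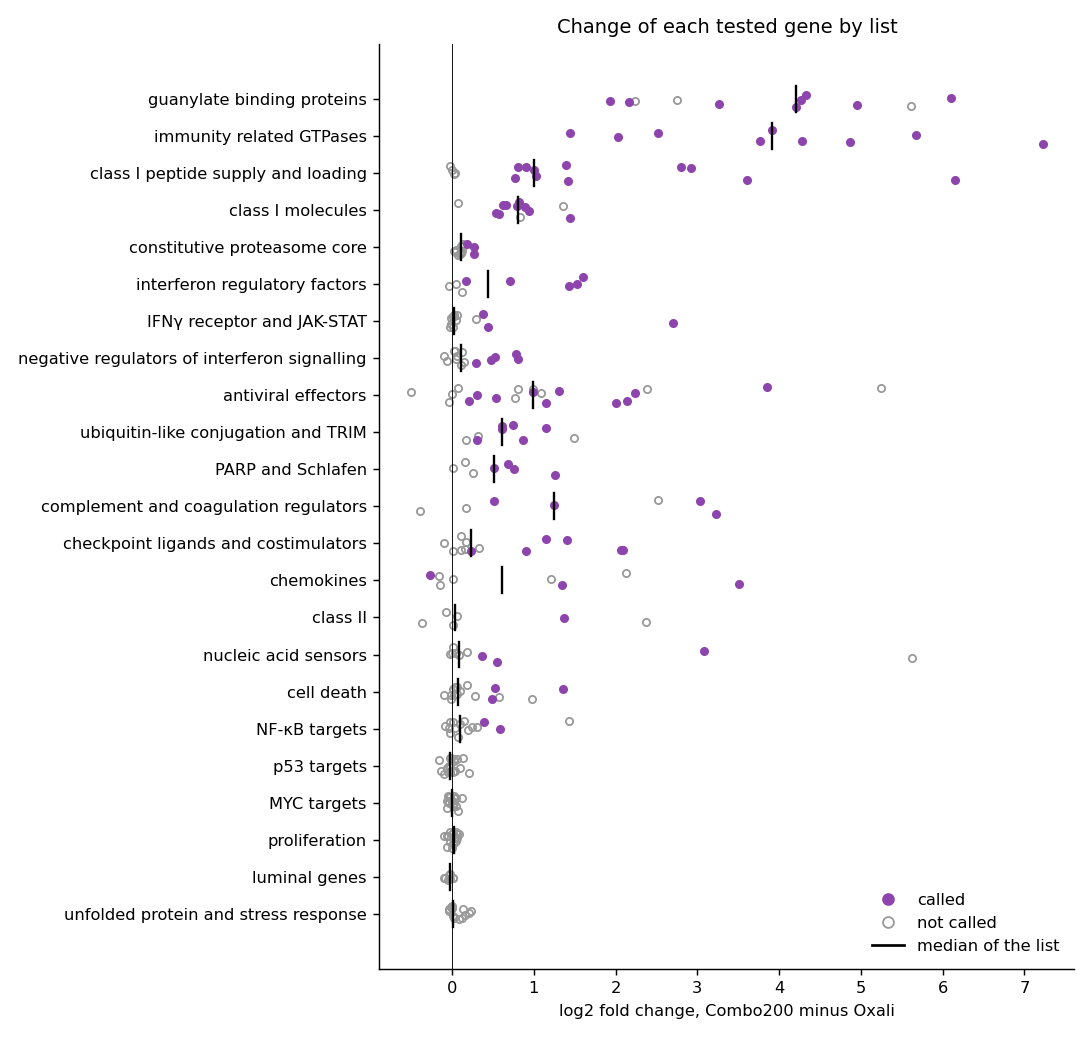
Log2 fold change in Combo200 minus Oxali of each tested gene of 23 lists (rows); filled purple points are called genes, open points genes not called and black bars list medians. Guanylate binding proteins and immunity related GTPases reach the highest medians, 4.21 and 3.91, while p53, MYC and proliferation genes gather around 0.

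The same dose was then read without Oxali, in IFN200 minus Ctrl, which shares no library with Combo200 minus Oxali. In that comparison 15 genes were called, all higher (0.114% of genes tested). The number was 5 and 4 without Ctrl replicates 1 and 2, 4 without IFN200 replicate 1 and 19 without IFN200 replicate 2. Of these 14 were also among the 208 rises with Oxali, which is 93.3% of the shorter list and 6.73% of the longer one: Erap1, Gbp2, Gbp3, Gbp7, Igtp, Irgm2, Lgals3bp, Parp14, Psmb8, Psmb9, Tap1, Tap2, Tapbp and Tgtp2. The other was mt-Co1. The changes with and without Oxali were then compared in an interaction test, whose calls were positive for 74 genes (0.562%) and negative for 18. The 92 calls became 160 without Oxali replicate 1, 40 and 41 without Ctrl replicates 1 and 2, 43 without IFN200 replicate 1, 55 without Oxali replicate 2 and 41 without Combo200 replicate 3.

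Irf1 changed by 0.25 on the log2 scale without Oxali, from 38.6 and 37.0 CPM to 47.1 and 42.9, and by 1.43 with it (interaction 1.17, adjusted p 3.61e-09). Gbp2 rose by 1.54 without Oxali and by 4.27 with it, and its level in IFN200, 3.30 and 2.25 CPM, was near that in Oxali alone. For Igtp the changes were 1.21 and 3.91, and for Tap1 1.41 and 2.93 (interaction 1.52, adjusted p 0.0133). The Tap1 interaction lost its call without Ctrl replicate 1, Ctrl replicate 2 or IFN200 replicate 1 (adjusted p 0.0940, 0.277 and 0.0629), while those of Irf1, Gbp2, Igtp and Irgm2 held in all fits without 1 library. The immunoproteasome subunits differed among themselves. Psmb10 had an interaction of 1.19 (adjusted p 4.37e-08), while Psmb9 rose by 3.18 without Oxali and 3.61 with it (interaction 0.42, adjusted p 0.831) and Psmb8 by 2.53 and 2.80 (interaction 0.28, adjusted p 0.928). Both were at 0.389 CPM or less in Ctrl, and the SE of their interactions was 0.45 and 0.60.

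**Figure D4:**
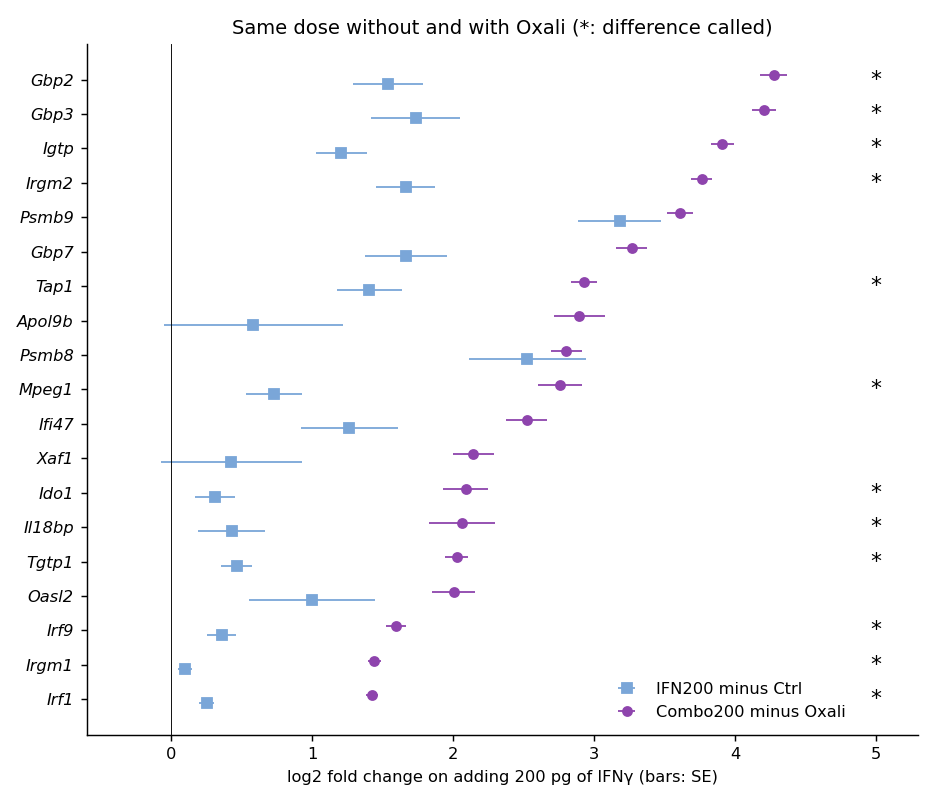
Log2 fold change on adding 200 pg of IFNγ (horizontal axis, bars are SE) without Oxali (squares) and with it (circles) for 19 of the 20 largest rises (rows); asterisks mark genes whose difference was called. Irgm1 and Irf1 lie below 0.4 without Oxali and above 1.4 with it, while Psmb9 and Psmb8 lie close together.

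A higher dose on the same Oxali background was read in Combo2000 minus Combo200, which shares the Combo200 libraries with the comparison above. It called 159 genes higher (1.21% of genes tested) and 22 lower. It made 181 calls in both directions with all libraries and 118 without Combo200 replicate 3. Guanylate binding proteins rose further in 11 of 11 tested genes and immunity related GTPases in 9 of 9. The first count is partly set by the filter on low counts. Gbp6, Gbp8 and Gbp11 had at most 9 counts in every library outside Combo2000 and passed the filter through Combo2000 alone. Gbp2 went from 57.4 and 63.2 CPM in Combo200 to 286 and 293 in Combo2000 (log2 fold change 2.26), and Tap1 from 39.7 and 38.5 to 79.4 and 76.8 (log2 fold change 1.00). Irf1 stood at 432 and 445 CPM in Combo2000, a further log2 change of 0.78. Large steps were also seen in genes that the low dose had left at a few CPM. Gbp5 went from 6.06 and 5.88 CPM to 51.6 and 46.0, and Cxcl10 from 2.14 and 2.40 to 16.6 and 17.2. Ciita, not called at the low dose, had a dose step of 2.71 on the log2 scale (adjusted p 0.00011). It too passed the filter through Combo2000 alone. H2-Q1, H2-Q2 and H2-T10 did not pass the test of the dose step, with log2 changes of 0.07, 0.10 and 0.17. Mgp, which encodes a matrix protein, fell from 16.1 and 13.5 CPM to 10.0 and 8.84 (log2 fold change -0.64).

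Falls on adding the low dose were few, small and less steady: 15 were called without Oxali replicate 2 and 1 without Combo200 replicate 3. Malat1, a nuclear long non-coding RNA, stood at 193 and 192 CPM in Oxali and at 121 and 88.9 in Combo200 (log2 fold change -0.88, SE 0.13, adjusted p 0.000213), and it was the 1 fall called in all 4 fits without 1 library. It stood at 281 and 208 CPM in Ctrl and 311 and 308 in IFN200, and the difference between the changes passed the test (interaction -1.22, adjusted p 0.000676) in every fit run. Neat1, another nuclear non-coding RNA, stood at 133 and 164 CPM in Oxali and at 128 and 94.5 in Combo200, and lost its call without Oxali replicate 2 (adjusted p 0.579) or Combo200 replicate 3 (adjusted p 0.626). The falls of Spaca6, Leng8, Gm12940, Tfb2m, Tspan1 and 4933439C10Rik lay between -0.38 and -0.62 and were each lost in at least 2 of those fits.

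Ribosomal RNA genes were among the largest falls. The mitochondrial mt-Rnr2 stood at 419 and 140 CPM in Oxali and at 122 and 127 in Combo200, and mt-Rnr1 at 261 and 110 in Oxali and 97.2 and 90.7 in Combo200. In CT010467.1 the groups overlapped, at 3429 and 273 CPM in Oxali and 215 and 277 in Combo200. In all 3 genes Oxali replicate 1 was the high library. Without it the log2 fold changes of mt-Rnr2 and mt-Rnr1 were -0.17 and -0.23 and did not pass the test (adjusted p 0.361 and 0.123), and they also lost their calls without either Combo200 library.

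**Figure D5:**
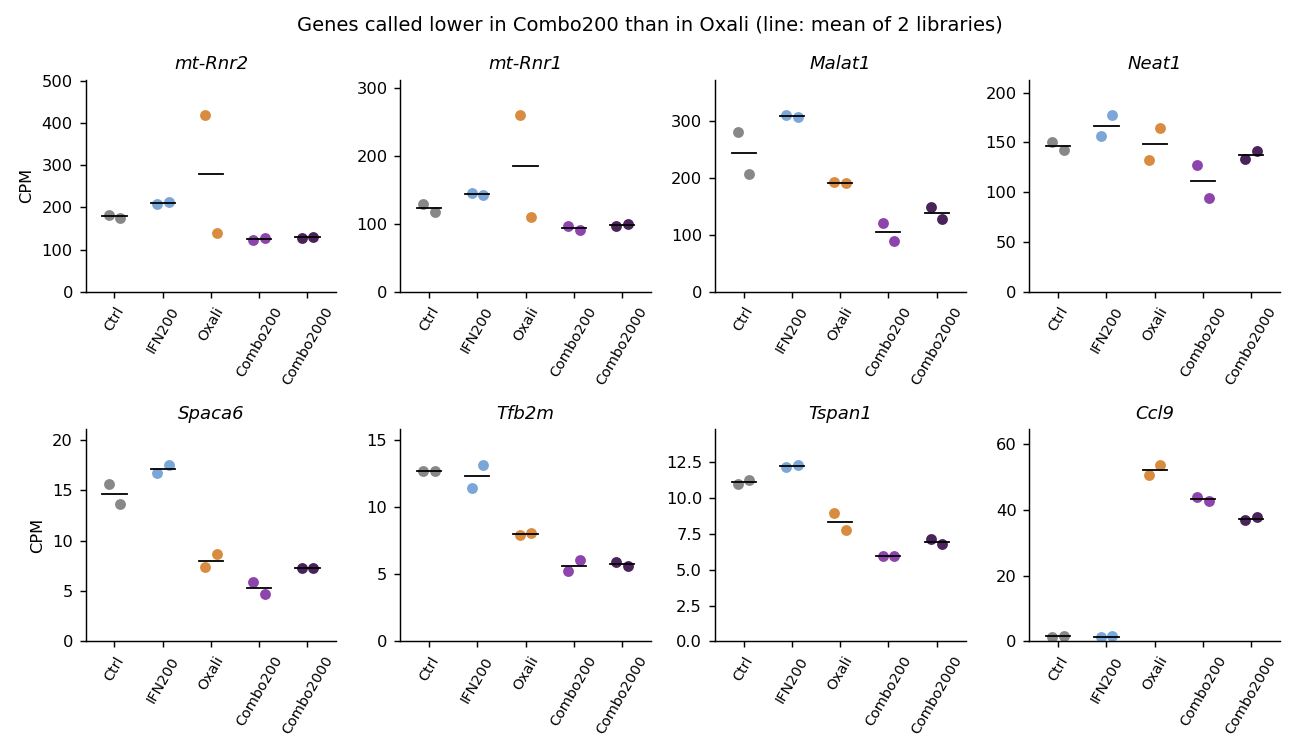
Level in CPM of 8 genes called lower in Combo200 than in Oxali, in each library of Ctrl, IFN200, Oxali, Combo200 and Combo2000; points are libraries, lines are means of 2 and the axes start at 0. A single Oxali library, replicate 1, is high in mt-Rnr2 and mt-Rnr1, whereas both Oxali libraries lie above both Combo200 libraries in Malat1.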

How the data were processed

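Per the labels, poly(A) RNA was sequenced with a stranded kit, and the submitters' processing notes name STAR 2.7.3a, RSEM 1.3.0 and the build GRCm38. The study's methods instead name featureCounts. The values deposited by the authors are whole-number counts of reads for each gene, with no normalization. Whether counting used the strand was not stated, so genes that overlap on opposite strands may share reads. Of 55216 genes in the table, 28300 had no count, and 13177 passed filterByExpr (minimum count 10, total 15).

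All 12 libraries, grouped by title into 6 groups of 2, entered one quasi-likelihood model in edgeR 4.0.16 (R 4.3.3) with TMM scaling and no covariate, leaving 6 residual degrees of freedom. A gene was called when its p, adjusted by Benjamini and Hochberg over all genes of a contrast, was under 0.05. CPM use the TMM-scaled totals. The SE was taken as the size of the log2 fold change over the root of the F statistic. Exact permutation of 2 against 2 libraries gives a two-sided p of 0.333 at the least. The test was tried on simulated data.

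The comparison and the 30 gene lists were chosen with earlier results of these data known. Named were Tap1 and Irf1, the top 20 rises and top 10 falls by log2 fold change, if called, at or above 1 log2 CPM and not overlapping between groups, up to 6 genes per list with the smallest p, the 5 largest steps each way of the other contrasts, and list members too low to test. A few genes that the rule selects are not reported here. Genes outside this rule are named as examples chosen after their values were seen. Ratios for genes with 3 counts or fewer in Oxali use summed counts, with exact 95% intervals. Alternatives were DESeq2 1.42.0, other scalings and filters, length and GC trends, and leaving out libraries.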

Additional observations from a re-analysis of the deposited data

Results flagged for a closer look

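The change on adding 200 pg of IFNγ differed with Oxali, by the interaction test of edgeR, for 92 genes. The largest positive interactions on the log2 scale among expressed genes were in Gbp2 (2.74), Igtp (2.7), Gbp3 (2.47) and Irgm2 (2.10). The largest negative ones were in Malat1 (-1.22), Spaca6 (-0.84), Tspan1 (-0.63), mt-Cytb (-0.55) and mt-Nd6 (-0.53). Without single libraries, the calls of Spaca6, Tspan1, mt-Cytb and mt-Nd6 were each lost in at least 3 of 8 fits, and that of Gbp3 without Ctrl replicate 2 (adjusted p 0.397). DESeq2 did not call Tspan1, mt-Cytb or mt-Nd6 (adjusted p 0.219, 0.0744 and 0.0744). The genes mt-Cytb and mt-Nd6 are encoded in mitochondria. Cytochrome b, mt-Cytb, stood at 1630 and 1599 CPM in Ctrl, 2049 and 2034 in IFN200, 1401 and 1751 in Oxali and 1409 and 1323 in Combo200, so both IFN200 libraries were high. Mitochondrial genes took 0.963% and 0.972% of the counts in IFN200 and 0.769% in each Ctrl library. With 2 libraries per group, no test for single libraries far from the rest was made.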

How the results depend on the processing

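Of the rises, 154 of 208 were also called by DESeq2, 200 with RLE scaling, 186 with upper-quartile scaling and 201 after length and GC trends were removed. The calls of Combo200 against Oxali numbered 372 without a filter on low counts, with 74 lower, and 81 were lower when only the compared libraries were fitted. DESeq2 called 16 lower. With a mean of at least 50 counts, 49 rises reached 2-fold. Leaving out 1 library gave 128 to 217 calls, 127 to 183 of them higher, 1 to 34 lower and 61 to 75 higher by at least 2-fold, 118 to 133 calls for the dose step, 40 to 160 for the interaction and 4 to 19 for IFN200. Without a filter the interaction called 262 genes and IFN200 102, and with only the compared libraries 176 and 31. The cause of these shifts was not tested. No pairing by replicate number was seen where it could be checked: same-numbered deviations correlated by -0.05 to 0.02. All genes tested counted equally there, so a weak pairing could be missed. Combo200 and Oxali share only number 2 and could not be checked. With the replicate block 142 genes were called, 135 higher and 7 lower, and 48 in the interaction. Of the named genes, 17 lost their call with DESeq2 and 24 with the block, and no called change reversed. 2 alternatives, GC trend alone and no ribosomal RNA genes, were chosen after seeing the data and called 242 genes each. Depth limits statements on genes below about 10 counts.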

Other observations

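Outside the gene lists, 114 genes were called higher. Among them the apolipoprotein L genes stood out after their values were seen: 5 of 6 tested rose, with a median log2 fold change of 2.02. Apol9b stood at 0.921 and 1.05 CPM in Oxali and at 6.94 and 7.73 in Combo200. Mpeg1, the pore-forming perforin-2, stood at 2.49 CPM or less in Oxali and at 14.3 and 19.2 in Combo200, and went on to 51.9 and 54.4 in Combo2000. Ly6a, a surface antigen of progenitor cells, rose from 24.1 and 23.7 CPM to 48.5 and 49.7, below its level in Ctrl, 132 and 123. Lgals3bp, a secreted glycoprotein, rose by 1.18 on the log2 scale with Oxali and by 1.40 without it.

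A few genes had no count in either Oxali library. They passed the filter on low counts through other groups and could only be called higher. Gm4841 had 50 and 61 counts in Combo200 and was at least 16.1-fold higher, BC023105 had 28 and 35 and was at least 9.15-fold higher, and F830016B08Rik had 22 and 28 and was at least 7.26-fold higher, each against 3 counts per library. Some of the small rises were in housekeeping machinery, in families grouped after the calls were seen. Over all genes tested, 1.58% were called higher. Of 78 cytosolic ribosomal protein genes, 10 were called higher and none lower, with a median log2 fold change of 0.08. The same held for 5 of 79 nuclear genes of oxidative phosphorylation (median 0.06). None of these calls was made without Combo200 replicate 3.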
